A study of Mus musculus with 8 samples.

Results

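Genes of major histocompatibility complex (MHC) class I presentation and of the immunoproteasome were examined in 4T1, a mouse mammary tumor cell line derived from a BALB/c mouse and used as a model of triple-negative breast cancer (TNBC). The 10 members, *H2-K1*, *H2-D1*, *B2m*, *Tap1*, *Tap2*, *Tapbp*, *Psmb8*, *Psmb9*, *Psmb10* and *Nlrc5*, were found by gene symbol among the 25676 genes listed in both deposited tables, and all 10 had 1 row in each. The cells had been given purified single-domain antibody (sdAb) at 0.5 μg/mL, either sdAb#07.81, which was selected from a synthetic library for binding to the stress protein NUPR1, for 24 h or 48 h, or the control sdAb-Con for 48 h, and all groups were kept at 1% O2. Each of these 3 groups held 2 libraries of the same line, and nothing in the labels says whether they came from separate cultures. The sdAb proteins, sdAb-Con as well as sdAb#07.81, had been purified from human HEK293F cells and carry a Tat sequence that lets a protein enter cells. They also carry cOdc1, a degron from ornithine decarboxylase that the paper used to induce degradation of NUPR1. A further group, labelled Control, was not analysed here.

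Class I molecules show peptides made inside a cell to CD8 T cells. The proteasome cuts proteins into peptides, the TAP transporter carries these into the endoplasmic reticulum, and a loading complex places them on a heavy chain bound to beta-2 microglobulin. Interferons are known to raise many genes of this route, and to replace the catalytic subunits of the constitutive proteasome with those of the immunoproteasome. Loss of class I from the surface is a known way for tumor cells to escape T cells.

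One table pools sdAb-Con (48 h) with sdAb#07.81 (48 h), and the other pools sdAb#07.81 (24 h) with sdAb#07.81 (48 h). For every gene each table gives the authors' mean normalized count over its 4 libraries, which is the read count divided by a size factor for the depth of the library. These means add up to 17867752 and 17900221 per library, and the raw depth of single libraries is unknown. Because the sdAb#07.81 (48 h) libraries are in both tables, 2 times the difference between the pooled means is the level in sdAb-Con (48 h) minus that in sdAb#07.81 (24 h). The ratio of the pooled means lies closer to 1 than the ratio of these groups, and so is a bound on it. Both statements hold as far as the separate normalization of the tables left them on one scale, and the median log2 ratio over the 13629 genes with a mean of at least 10 in both tables was -0.05. The spread between libraries cannot be had from pooled means. No value below therefore has a replicate error, and no difference was tested. These groups differ in the antibody and in the time at once, and the pooled means alone do not tell the part of each apart. Nor could sdAb#07.81 (48 h) be set against sdAb-Con (48 h) from the pooled means.

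Promoters of 8 members were found in RefSeq (build GRCm38.p6), and *Tap2* and *Nlrc5* were not. Those of *H2-K1*, *H2-D1*, *B2m* and *Tap1* are shown, as 250 bases before the transcript start on the strand of the gene, since they hold the sequence features that the members share or do not share. *H2-K1* is listed with 2 starts 14 bases apart, and the first is shown, chr17:34000348-34000597 on the minus strand. The other windows are chr17:35262844-35263093 for *H2-D1*, chr2:122147437-122147686 for *B2m* and chr17:34187306-34187555 for *Tap1*, all on the plus strand. Capitals mark GGGATTCCC, the NF-kB type motif of the class I enhancer, or a strict form of the core of the interferon-stimulated response element, which was searched as GAAA, any bases NN and again GAAA.
H2-K1: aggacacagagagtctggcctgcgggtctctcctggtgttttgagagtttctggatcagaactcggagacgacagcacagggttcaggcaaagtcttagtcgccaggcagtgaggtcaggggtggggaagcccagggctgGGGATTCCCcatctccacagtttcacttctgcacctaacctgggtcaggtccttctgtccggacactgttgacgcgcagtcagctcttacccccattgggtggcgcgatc
H2-D1: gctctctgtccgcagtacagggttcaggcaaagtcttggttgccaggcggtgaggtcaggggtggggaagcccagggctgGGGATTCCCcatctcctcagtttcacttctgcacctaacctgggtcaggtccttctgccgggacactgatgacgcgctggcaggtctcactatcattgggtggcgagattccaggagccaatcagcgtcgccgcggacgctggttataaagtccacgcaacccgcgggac
B2m: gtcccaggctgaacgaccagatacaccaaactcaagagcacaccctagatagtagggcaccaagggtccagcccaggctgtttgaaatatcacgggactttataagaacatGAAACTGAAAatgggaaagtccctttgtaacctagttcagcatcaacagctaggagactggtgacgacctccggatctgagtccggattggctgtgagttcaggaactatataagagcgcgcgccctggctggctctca
Tap1: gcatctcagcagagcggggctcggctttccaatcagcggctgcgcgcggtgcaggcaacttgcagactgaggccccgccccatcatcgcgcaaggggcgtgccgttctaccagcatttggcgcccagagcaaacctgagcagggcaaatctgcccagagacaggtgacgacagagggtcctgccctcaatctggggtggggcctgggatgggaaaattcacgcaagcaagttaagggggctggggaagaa

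Motifs were searched on both strands of windows that run from 250 bases before to 50 after each start. GGGATTCCC was in 116 of the 32851 promoter windows (0.353%), and *H2-K1* and *H2-D1* were both among them. Lined up on this motif with 60 bases on either side, the *H2-K1* and *H2-D1* promoters were identical at 122 of 129 bases (94.6%). The strict form GAAA, NN, GAAA was in 3.44% of all windows and, among the members, in *B2m*. A form that it misses, GAAGTGAAA, was searched after the sequences had been seen. It was in 0.505% of all windows and in those of *H2-K1* and *H2-D1*, on the strand opposite to the one printed, shortly after GGGATTCCC. CCAAT, the core of the Y box of class I and class II promoters, was in 37.4% of all windows and in those of 6 members, namely *B2m*, *H2-D1*, *H2-K1*, *Psmb9*, *Tap1* and *Tapbp*, with 1 site shared by the overlapping windows of *Tap1* and *Psmb9*. The full cyclic AMP response element TGACGTCA was in 1.79% of all windows and in none of those of the members. Shorter forms such as TGACG, which can be read in the printed sequences, were not searched. These matches describe letters in the reference sequence, and binding was not measured.

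The tables place 7 of the 10 members on chromosome 17, which holds the mouse MHC. Gene positions are given as the tables list them, in a build that is not GRCm38 and is not named for mouse in the sources used here. *Psmb9*, *Tap1*, *Psmb8* and *Tap2* lie side by side within 34335 bases. *Psmb9* runs from 34400961 to 34406738 on the minus strand and *Tap1* from 34406527 to 34416199 on the plus strand, so they start head to head and overlap by 212 bases. In RefSeq their starts are 226 bases apart, and 275 bases of the *Tap1* window are also in the *Psmb9* window. Whether reads were counted by strand is not given in the sources used here, so reads in the overlap of the genes could not be told apart. A distance of 495 bases separates *Tap1* from *Psmb8*, and 2072 bases separate *Psmb8* from *Tap2*. *Tapbp*, *H2-K1* and *H2-D1* are farther off on the same chromosome, *B2m* is on chromosome 2, and *Psmb10* and *Nlrc5* are on chromosome 8.

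**Figure D1:**
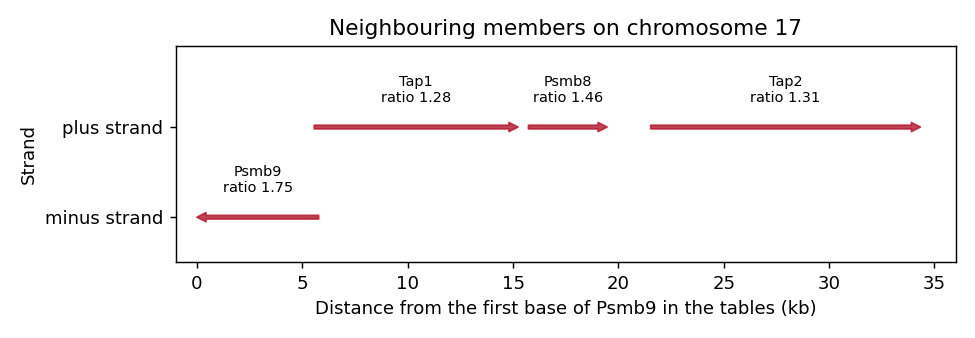
Map of the neighbouring members on chromosome 17, drawn to scale as arrows in the direction of transcription against the distance in kb from the first base of *Psmb9* in the tables. The label of each gene gives its ratio of pooled means, which is above 1.2 for every gene drawn, from 1.28 for *Tap1* to 1.75 for *Psmb9*.

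Among the members, the light chain gene *B2m* and the heavy chain gene *H2-D1* had the highest levels. To compare genes, the pooled mean was divided by the length of the longest protein-coding transcript of the gene. In the table with sdAb-Con (48 h), this level was 23794 per kb for *B2m*, 8186 for *H2-D1* and 1475 for *H2-K1*. *Psmb8* followed with 1355 per kb and *Tapbp*, which encodes the loading factor tapasin, with 1333. These neighbours differed by less than 1.2 times, whereas *B2m* and *H2-D1* stood well apart from them. *Tap2* had a level of 359 per kb, *Tap1* 332, *Psmb9* 300 and *Psmb10* 297, and the transactivator gene *Nlrc5* had the lowest, 94.8. This order depends on the length used. By the median protein-coding transcript, 8 of the 10 members changed place, with *H2-D1* (42382 per kb) before *B2m* (23794), *Tapbp* (9354) and *Tap2* (3269) before *Psmb8* (2626) and *H2-K1* (2441). *B2m* and *H2-D1* were the highest and *Psmb10* and *Nlrc5* the lowest by either length. By the longest transcript, the order in the table with sdAb#07.81 (24 h) differed in the places of *Psmb8* and *Tapbp*, which had 929 and 1023 per kb, and of *Psmb9* and *Psmb10*, which had 171 and 215.

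The chains of the class I molecule had higher pooled means in the table with sdAb-Con (48 h) than in the one with sdAb#07.81 (24 h). *H2-D1*, a classical heavy chain (ENSMUSG00000073411, chromosome 17 from 35481706 to 35486475), had a mean normalized count of 17207 in the table with sdAb-Con (48 h) and 11721 in the table with sdAb#07.81 (24 h). Its ratio was 1.47, and its level in sdAb-Con (48 h) exceeded that in sdAb#07.81 (24 h) by 10972 normalized counts. *B2m* (ENSMUSG00000060802, chromosome 2 from 121978167 to 121983564) had 20463 and 15285, a ratio of 1.34 and a difference of 10355 normalized counts. The other classical heavy chain, *H2-K1* (ENSMUSG00000061232, chromosome 17 from 34214991 to 34219321), had 2388 and 1923, and its ratio of 1.24 was the lowest among the members above 1. Per kb, *H2-D1* had 5.55 times the level of *H2-K1* in the first table and 4.69 times in the second, but 17.4 and 14.7 times by the median transcript length. Heavy chain genes have near-identical copies in the MHC, and BALB/c mice carry other class I alleles than the C57BL/6 reference strain, so the split of reads between *H2-K1*, *H2-D1* and their copies is uncertain and was not tested.

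The 3 members that serve peptide transport and loading, *Tap1*, *Tap2* and *Tapbp*, had similar ratios. TAP is a dimer of the products of *Tap1* and *Tap2*. Per kb, *Tap2* had 1.08 times the level of *Tap1* in the table with sdAb-Con (48 h) by the longest transcript but 8.71 times by the median one, so the length decides this value. The mean normalized count of *Tap1* (ENSMUSG00000037321) was 981 in the table with sdAb-Con (48 h) and 766 in the table with sdAb#07.81 (24 h), a ratio of 1.28. In the same order of tables, the means of *Tap2* (ENSMUSG00000024339, chromosome 17 from 34422501 to 34435295) were 1236 and 944, a ratio of 1.31. *Tapbp* (ENSMUSG00000024308, chromosome 17 from 34134873 to 34148266) had 3863 and 2964, a ratio of 1.30. The spread of these 3 ratios is small beside that of the immunoproteasome genes.

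**Figure D2:**
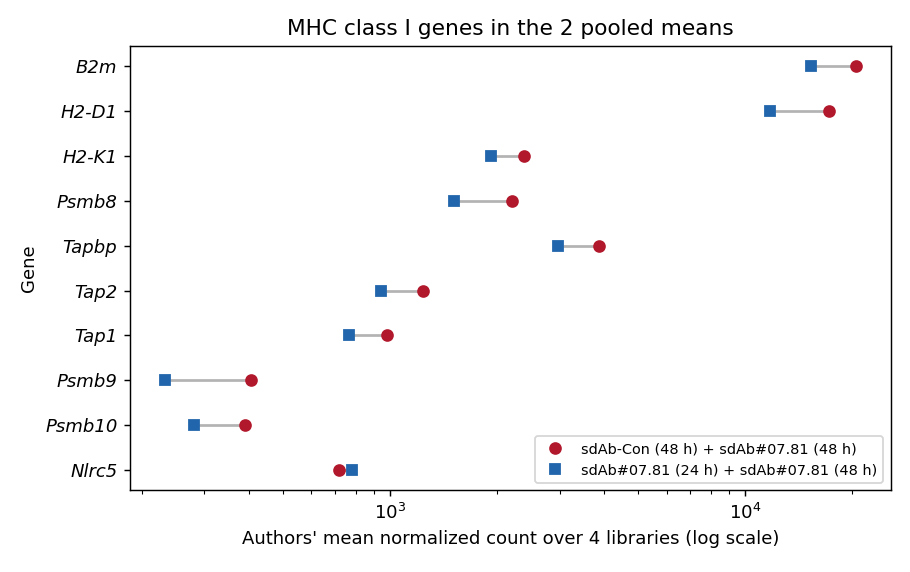
Authors' mean normalized count over 4 libraries (x axis, log scale) for each member (y axis, ordered by level per kb). Circles stand for the table with sdAb-Con (48 h) and squares for the table with sdAb#07.81 (24 h), both of which include the sdAb#07.81 (48 h) libraries. The circle lies to the right of the square for 9 genes and to the left for *Nlrc5* (718 and 782).

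The immunoproteasome gene *Psmb9* had the highest ratio of the 10 members. This gene (ENSMUSG00000096727), whose product replaces the constitutive subunit encoded by *Psmb6*, had a mean normalized count of 406 in the table with sdAb-Con (48 h) and 232 in the table with sdAb#07.81 (24 h). Its ratio of 1.75 exceeded that of 99.4% of the 13629 background genes. *Psmb8* (ENSMUSG00000024338, chromosome 17 from 34416695 to 34420428), which replaces *Psmb5*, had 2206 and 1513, a ratio of 1.46. *Psmb10* (ENSMUSG00000031897, chromosome 8 from 106662367 to 106665076), which replaces *Psmb7*, had 390 and 281, a ratio of 1.38. The constitutive partners had lower ratios, 1.07 for *Psmb5*, 1.15 for *Psmb6* and 1.04 for *Psmb7*, and none of them reached 1.2. Of the summed level per kb of *Psmb8* and *Psmb5*, *Psmb8* made up 75.0% in the table with sdAb-Con (48 h) and 68.8% in the other. *Psmb9* made up 14.6% and 10.1% of its pair, and *Psmb10* 17.0% and 13.3% of its own. By the median transcript length the shares of *Psmb8* were 83.1% and 78.3%, those of *Psmb9* 30.4% and 22.3%, and those of *Psmb10* the same as before. The share of the immunoproteasome gene was larger in the table with sdAb-Con (48 h) for all 3 pairs, which follows from the ratios above whatever the length, although *Psmb8* was the more abundant gene of its pair in both tables and *Psmb9* and *Psmb10* were the less abundant ones.

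*Nlrc5*, which encodes the transactivator of class I genes, differed from the other 9 members in direction. Its row (ENSMUSG00000074151, chromosome 8 from 95160984 to 95253900) had a mean normalized count of 718 in the table with sdAb-Con (48 h) and 782 in the table with sdAb#07.81 (24 h). The ratio of these pooled means was 0.92. From 2 times their difference, the level in the sdAb-Con (48 h) group minus that in the sdAb#07.81 (24 h) group was -127 normalized counts. This difference was not rescaled between the tables. Divided by the median ratio of all background genes, the ratio of *Nlrc5* was 0.95, and 40.8% of the background genes had a lower ratio. *Nlrc5* thus stood near the middle of all genes and apart from the other members.

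Across the 10 members, 9 had a ratio of at least 1.2, against 16.4% of the 13629 background genes, and 0 had a ratio at or below the inverse of 1.2, against 25.5%. The median ratio of the members was 1.32, and that of the background genes 0.97. A ratio above 1 was found for 44.1% of the background genes. Apart from *Nlrc5*, the members stood between the percentiles 86.7 (*H2-K1*) and 99.4 (*Psmb9*) of the background.

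**Figure D3:**
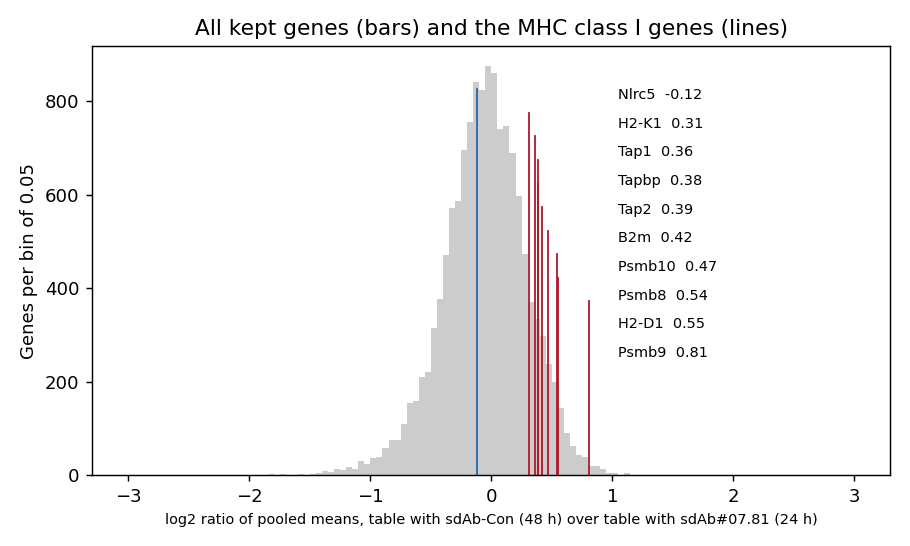
Histogram of the log2 ratio of the pooled means, table with sdAb-Con (48 h) over table with sdAb#07.81 (24 h), for 13629 genes, with the number of genes per bin of 0.05 on the y axis. The lines mark the 10 members and differ in height only to be told apart. *Nlrc5* lies at -0.12 within the bulk, and the others lie on the right flank from 0.31 to 0.81.

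Of the 18 genes reported from a longer list of the class I route, 18 had a ratio above 1, against 44.1% of background genes, and 10 a ratio of at least 1.2, against 16.4%. Their median was 1.23, against 0.97 in the background, and their range was 1.02 to 1.94. All 7 non-classical class I genes of the list were above 1, from 1.09 to 1.61 for *H2-T22*. These genes also have close copies. The 3 endoplasmic reticulum chaperones of the list ranged from 1.22 to 1.94. They serve the folding of many other proteins too, and *Calr* was at the upper end with means of 68847 and 35447. *Irf1*, a transcription factor gene that acts downstream of interferons, had a ratio of 1.35.

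Markers of the line and of other cells were set beside these values. *Krt8*, *Krt18*, *Epcam* and *Cdh1*, epithelial genes, had ratios from 0.96 to 1.06 and means of at least 2858 in both tables, while *Krt14*, a basal keratin, had means of 292 and 432 and a ratio of 0.67. Of 10 immune cell markers, 7 were listed in both tables, and the highest mean among them was 6.97 (*Coro1a*). *Adgre1* was listed in 1 table only, with a mean of 0.467, and *Itgax* and *Ncr1* were listed in neither. *Ptprc*, which marks leukocytes, had means of 1.06 and 1.80. The 7 markers summed to 16.0 in the table with sdAb-Con (48 h) and 15.6 in the other, against 49858 and 36412 for the members. *Nupr1*, the gene of the protein targeted by sdAb#07.81, had means of 2990 and 2373.

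**Figure D4:**
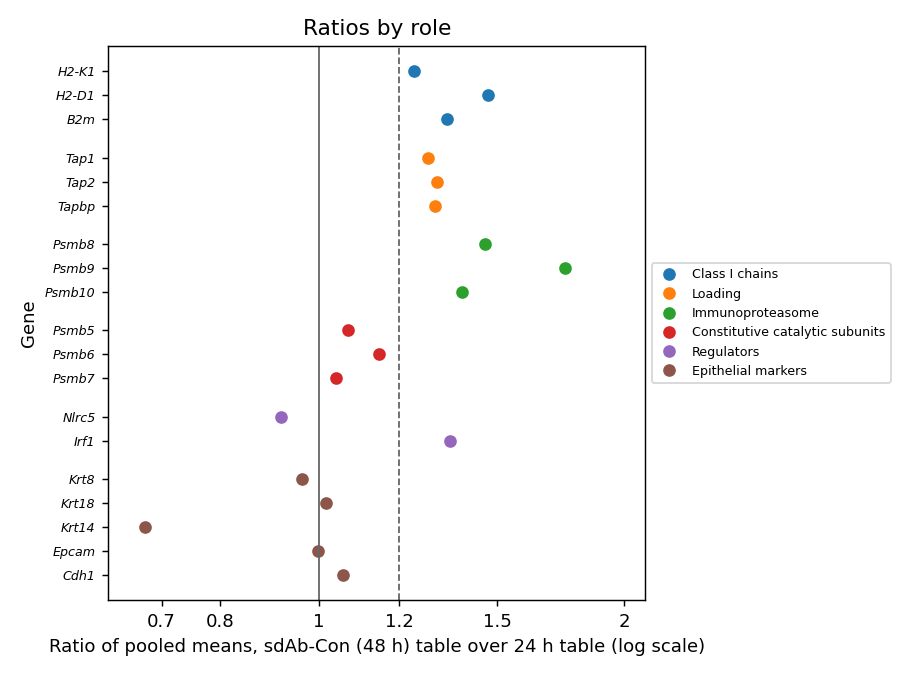
Ratio of the pooled means (x axis, log scale) for members, partner genes and epithelial markers, grouped by role and colored by group. The solid line marks 1 and the dashed line 1.2. The immunoproteasome genes (1.38 to 1.75) lie to the right of the constitutive subunits (1.04 to 1.15), and *Nlrc5* lies left of 1, unlike *Irf1*.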

How the data were processed

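The series holds 8 RNA-seq libraries of 4T1 cells, 2 in each of 4 groups. Of these data 2 tables were deposited, and the only value column used here is the authors' mean over 4 libraries of counts divided by size factors, a pooled signal (the mean normalized count) with no value per library. The tables also list the authors' own fold changes, errors, test statistics and p-values for the comparisons, which were not used here. The submitters' processing notes name cutadapt 1.9.1, HISAT2 2.0.1, HTSeq 0.6.1 and GRCh38.p14, a human build, while the gene identifiers are of mouse.

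Rows were matched by symbol and, for ratios, by gene identifier. Genes with a mean of at least 10 in both tables (13629) formed the background, and a ratio of at least 1.2 counted as higher. The members, the lists and the fold were chosen with earlier results of these data known. The count test that had been planned needs values per library, so no test was made. The arithmetic of the ratio was tested on simulated data, with both pooled means on one scale. The separate normalization of the tables was not simulated. Transcript lengths came from GENCODE M21 and promoter sequences from RefSeq (GRCm38.p6). Of the gene identifiers, 96% were found in GENCODE M21, where 95.5% of those found have the same span in bases but 1.95% the same position, so the coordinates of the tables belong to another build. A gene of the pathway list, an immune marker and a motif were left out for a reason that did not depend on their values and are not reported here, and all counts are over the remaining entries. The text names all members, up to 6 genes of the pathway list, the class II list and the markers. Python 3.11.15, numpy 2.4.6, pandas 2.3.3 and matplotlib 3.10.9 were used.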

Additional observations from a re-analysis of the deposited data

How the results depend on the processing

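The count of 9 members with a ratio of at least 1.2 was also 9 without a filter on the mean, at a mean of at least 100, with each mean as a share of the sum of its table, with the ratio divided by the median ratio of the background, and at a fold of 1.1, where 28.1% of background genes passed. No member had a mean below 231.8, so neither filter could remove one. Both scalings (1.00182 and 1.03216) raise the ratios, and 1.1 is a lower fold. None of these settings could therefore lower the count. At a fold of 1.5 the count fell to 1 (*Psmb9*), against 2.55% of background genes, and the next highest ratio was 1.47 (*H2-D1*). The count of 9 thus depends on the fold. Both folds, and the use of the 2 scalings for the ratios and this count, were chosen after seeing the data. Under the scalings, all 10 members stayed on their side of 1. With the median in place of the longest transcript length, also chosen after seeing the data, 8 of the 10 members changed place in the order of levels per kb, and *Tap2* stood at 8.71 in place of 1.08 times *Tap1*. Ratios of pooled means do not depend on the length. No paired analysis was possible because the columns used give no values per library. For the same reason the count tests of the 3 comparisons, the second count tool, the replicate block and leaving out single libraries were not run. The spread between libraries thus limits every value.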

Other observations

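Genes of the class II route, which presents peptides from outside the cell and is mostly limited to immune cells, had means that differed widely. *Cd74*, the invariant chain, had mean normalized counts of 1149 in the table with sdAb-Con (48 h) and 583 in the table with sdAb#07.81 (24 h), a ratio of 1.97. *H2-DMa*, which helps to exchange peptides on class II molecules, had 257 and 153, a ratio of 1.68. The class II chain genes were below the mean of 10 in at least 1 table, with *H2-Ab1* at 14.4 and 6.51, *H2-Eb1* at 3.40 and 1.32 and *H2-Aa* at 0.77 and 0.27. The class II transactivator gene *Ciita* had 6.48 and 4.84.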
